A study of Drosophila melanogaster with 7 samples.

Results

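loqs (loquacious) and Hen1 encode proteins that act at opposite ends of small RNA production in Drosophila melanogaster, and they are 2 of the 2366 genes in the authors' deposited table of the ISWI knockdown comparison. They were taken by symbol, and both had been chosen by their fold changes and p-values in this same comparison. Their own values below are therefore a description and carry no test, and the adjusted p-values printed for them are the authors'. The study measured RNA of dissected central brain and ventral nerve cord from larvae in the middle of the third instar, kept at 25 °C for 4 days from egg lay. The genotype of 4 libraries was elav-GAL4>UAS-ISWI RNAi, in which a driver active in neurons expresses an RNA interference transgene against Iswi, the ATPase of the ISWI nucleosome remodelling complexes. Controls were 3 libraries of elav-GAL4; + larvae, which carry the driver without that transgene, although the deposited column header names the control attp2. Each library pooled about 40 brains, and the labels call the libraries biological replicates.

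Small RNAs guide Argonaute proteins to complementary transcripts. In flies, Dicer-1 cuts microRNA precursors and its products mostly load Argonaute-1, whereas Dicer-2 cuts long double-stranded RNA into small interfering RNAs that load Argonaute-2. Loquacious is a protein with double-stranded RNA binding domains that assists both enzymes, its PB isoform with Dicer-1 and its PD isoform with Dicer-2. Hen1 is a methyltransferase that modifies the last nucleotide of small RNAs bound to Argonaute-2 or to the PIWI proteins and so protects them from tailing and trimming. RNA interference transgenes are themselves processed by these pathways, and only the ISWI RNAi larvae carried one. Effects of expressing the transgene, of the loss of ISWI and of other differences between the stocks cannot be told apart here. In pooled tissue, fewer cells of a type and less RNA per cell cannot be told apart either.

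The targeted gene, Iswi, stood at 24.6% of its control level in the authors' deposited table (log2 fold change -2.03, implied standard error 0.06). Of the 10775 genes that the adjusted p-values imply were tested, 4.65% had an adjusted p under 0.05, with 2.06% higher and 2.59% lower in ISWI RNAi libraries. The table holds genes with p under 0.1, so a gene missing from it either had a larger p or was not tested. Depth and spread of single libraries are unknown, since the values analysed are not given per library.

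loqs (FBgn0032515) lies on the plus strand of chromosome 2L (13382652 to 13385671, build BDGP6). It had a mean normalised count of 2117 over all libraries and a log2 fold change of -0.62 in the authors' deposited table. The standard error implied by the authors' p was 0.06, and the 95% interval ran from -0.74 to -0.50. In linear terms loqs RNA stood at 65.1% of the control level, with an interval of 59.8% to 70.8%. If the fold change is taken as the ratio of the group means, these values imply mean normalised counts of about 1721 in ISWI RNAi libraries and 2644 in control libraries.

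The authors' deposited table gives loqs an adjusted p of 2.4e-20, which places it at rank 12 by p. Reading the same statistic against a t reference with 5 degrees of freedom ends the call, with an adjusted p of 0.150. That reference ends nearly all calls: 5 genes of the table pass under it in place of 501. Among the 279 genes called lower in the authors' deposited table, loqs had the 60th largest log2 fold change, against a median of -0.38. Among the 121 called genes with a mean count within 2-fold of that of loqs, 4 had a larger absolute log2 fold change, and the median absolute change was 0.29 in the authors' deposited table. The genes closest to loqs in fold change within that range of counts were MFS17 (-0.60), Parp (-0.59), cin (-0.58), ND-AGGG (-0.72) and ade3 (-0.50), on the log2 scale of the authors' deposited table. This likeness is one of a single comparison with 1 fold change per gene.

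Hen1 (FBgn0033686) lies on the plus strand of chromosome 2R (12145710 to 12152752, build BDGP6). It had a mean normalised count of 200.0 and a log2 fold change of 0.69 in the authors' deposited table, opposite in sign to that of loqs. The implied standard error was 0.14 and the 95% interval ran from 0.41 to 0.97. Hen1 RNA thus stood at 161% of the control level, with an interval of 133% to 196%. The same reading of the fold change gives mean normalised counts of about 239 in ISWI RNAi libraries and 148 in control libraries.

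The adjusted p of Hen1 in the authors' deposited table was 1.2e-04, at rank 141 by p. With the t reference it was 0.366, so that call ends too. Its standard error was 0.14, equal at this rounding to the median of 0.14 over the 427 genes in the table with a mean count within 2-fold of its own. Hen1 had the 118th largest log2 fold change of the 222 genes called higher, so its size was close to their median of 0.72 in the authors' deposited table. Among the 124 called genes of similar mean count, 49 changed by more on the log2 scale. The closest in fold change were TpnC47D (0.69), CG15914 (0.70), CG11983 (0.70), NLaz (0.67) and GstO3 (0.71), again on the log2 scale of the authors' deposited table. Among called genes of similar mean count, the change in Hen1 was thus of ordinary size, while that of loqs was among the larger ones. Genes that were not called are left out of this comparison.

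**Figure D1:**
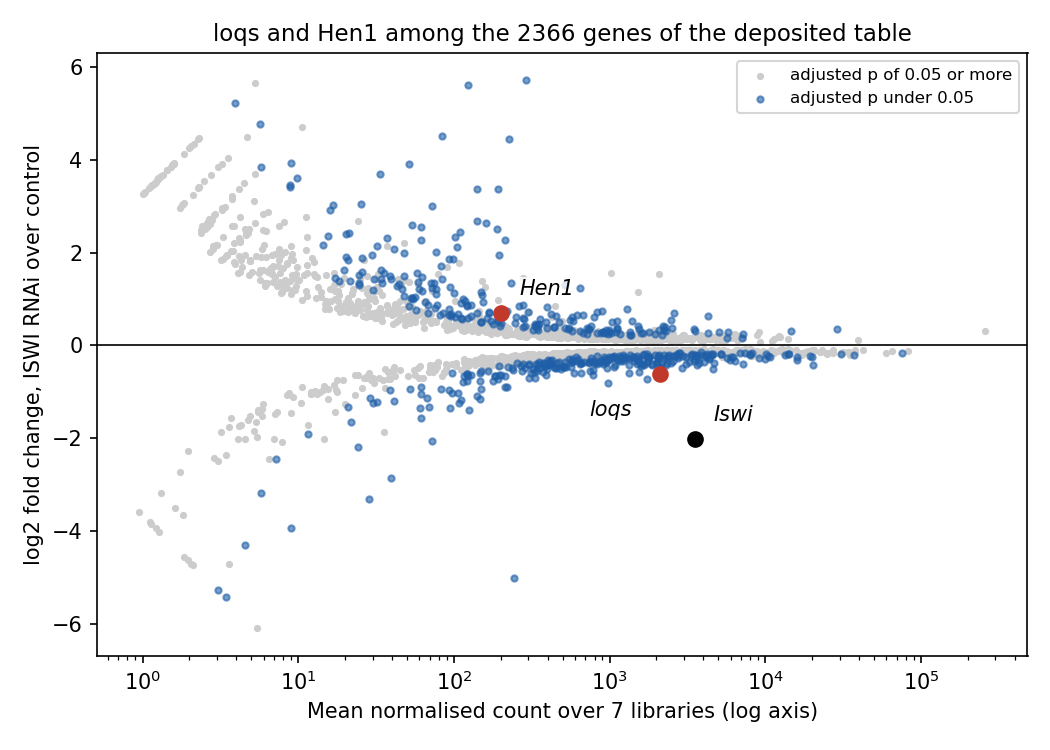
log2 fold change of ISWI RNAi over control (vertical axis) against the mean normalised count over all libraries (horizontal log axis) for all 2366 rows of the authors' deposited table. Calls at an adjusted p under 0.05 are in blue, loqs and Hen1 in red and Iswi in black. loqs (-0.62) lies at the lower edge of the cloud at its count, whereas Hen1 (0.69) lies inside the spread of called genes at its lower count.

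Levels can be compared between genes once the counts are divided by gene length. On this scale loqs had a mean normalised count of 924 per kb and Hen1 of 127 per kb, a 7.27-fold difference in level. The median over the genes of the authors' deposited table was 243 per kb. loqs was thus above 81.9% and Hen1 above 35.4% of the genes in the table. Among the partners, Dcr-2 (Dicer-2) had 434 and AGO2 (Argonaute-2) 1110 mean normalised counts per kb in the authors' deposited table. Of these 4 genes of the small interfering RNA pathway, the methyltransferase gene therefore had the lowest RNA level per kb.

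The annotation gives loqs 6 transcripts with the same start. Their coding sequences are 419 codons long in loqs-RA, 465 in loqs-RB, 383 in loqs-RC and 359 in loqs-RD, with 418 in loqs-RE and 464 in loqs-RF. All of them share 1191 of the 2290 bases that lie in any loqs exon. loqs-RD, which encodes the isoform that works with Dicer-2, stops early, at base 13384165, and has 143 bases found in no other loqs transcript. The deposited table has 1 value for the gene, so the share of the lower signal that belongs to the Dicer-1 or the Dicer-2 isoform was not tested. The length of 2290 bases that the authors' deposited table gives for loqs equals the union of these exons.

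Hen1 has 1 annotated transcript of 3 exons, 1573 bases long with 391 codons. Its first intron spans 5381 bases and holds bsd, a gene on the other strand, with no base shared between exons of these genes. loqs in turn is overlapped from the other strand by asRNA:CR44599, a noncoding RNA that shares 420 exon bases with its last part. bsd and asRNA:CR44599 are both missing from the table. Because it is not known whether strand was used in counting, reads from loqs and asRNA:CR44599 cannot be told apart within those shared bases.

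**Figure D2:**
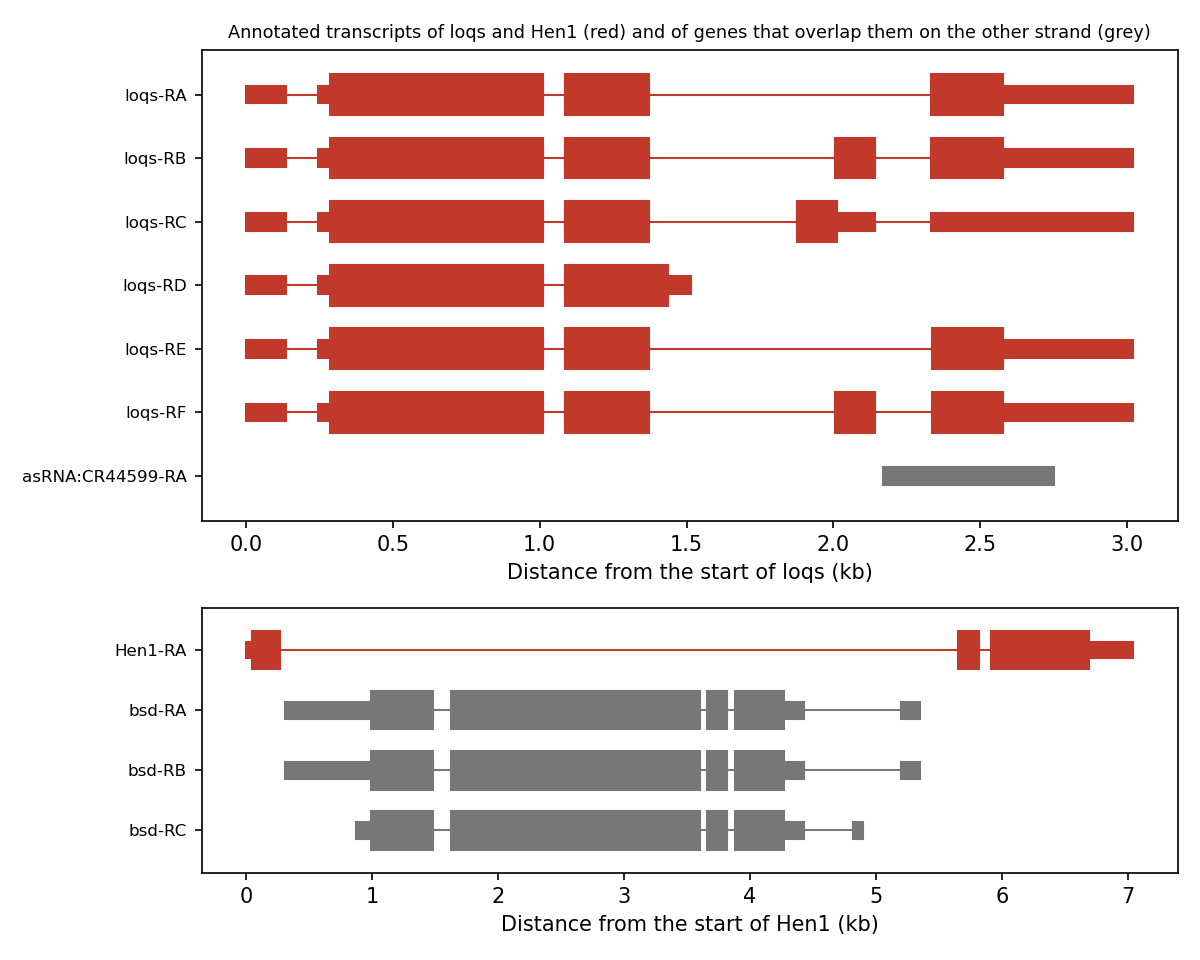
Annotated transcripts of loqs (above) and Hen1 (below) in red and of the genes that overlap them on the other strand in grey, drawn to scale against the distance in kb from the start of the gene. Tall boxes are coding and low boxes untranslated exon parts. loqs-RD ends early, asRNA:CR44599 covers 420 exon bases at the other end of loqs, and bsd lies within the first intron of Hen1.

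No gene next to loqs was called. beta'COP, which encodes a coatomer subunit, ends 269 bases before loqs and is missing from the table, while Ing5 lies 176 bases beyond its end and had, in the authors' deposited table, a log2 fold change of 0.16 (adjusted p 0.428). Within 250 kb of loqs, 0 of 85 other protein-coding genes were called at the authors' adjusted p under 0.05, and 7 of them were in the table at p under 0.1. Across the annotation 3.15% of protein-coding genes were called. loqs was thus the only call in this window of protein-coding genes.

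Hen1 had called neighbours. Of the 24 other protein-coding genes within 50 kb, 3 were called (12.5%), and within 100 kb it was 4 of 37 (10.8%), against the 3.15% of protein-coding genes across the annotation. Within 250 kb the count was 5 of 91 (5.49%), nearer to that share. The calls were few and went both ways.

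SkpB, which encodes a Skp1-type protein, lies 5480 bases before Hen1, and the authors' deposited table has it higher by 2.36 on the log2 scale (mean normalised count 15.6, adjusted p 8.5e-04). CG34232, 12156 bases beyond Hen1, was higher by 1.35 there (the authors' deposited table, adjusted p 4.9e-09). In the other direction, CCT5, a subunit of the cytosolic chaperonin, fell by 0.18 in the authors' deposited table (adjusted p 0.031). The scavenger receptor gene Sr-CII fell by 2.87 there (mean normalised count 39.7, adjusted p 8.0e-14). CG30046, 161364 bases beyond Hen1, rose by 1.43 in the authors' deposited table (mean normalised count 39.2, adjusted p 0.012). The genes directly beside Hen1 were not called: CG8407, which starts 318 bases beyond it on the same strand, had a log2 fold change of -0.44 (adjusted p 0.108) in the authors' deposited table, and OSCP1, on its other side, is missing from the table. Iswi itself lies on the same chromosome arm, 484 kb beyond Hen1. Each group is 1 genotype, so a change of Hen1 through the knockdown and one through sequence differences between the stocks cannot be told apart.

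**Figure D3:**
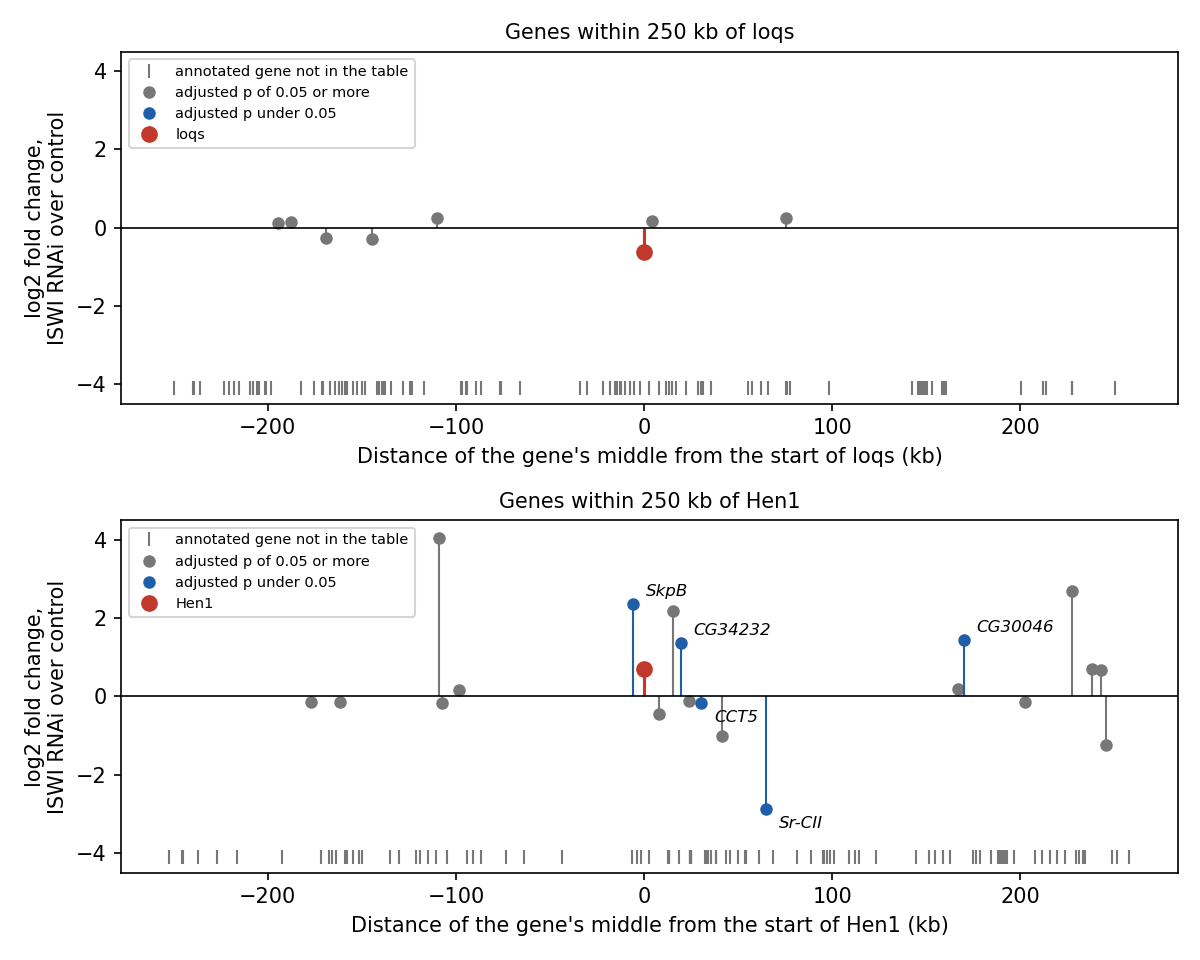
log2 fold change of ISWI RNAi over control for genes within 250 kb of loqs (above) and Hen1 (below), plotted against the distance of the gene's middle from the start of loqs or Hen1 in kb. Blue points have an adjusted p under 0.05, grey points do not, and grey ticks are annotated genes that are not in the authors' deposited table. No blue point lies near loqs, while SkpB, CG34232, CCT5, Sr-CII and CG30046 are called near Hen1.

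The genes taken as direct partners in the microRNA and small interfering RNA pathways were not called. Of the genes for PIWI proteins, whose small RNAs Hen1 modifies, piwi and AGO3 were called and aub was not, as given below. Of Dcr-1, Dcr-2, r2d2, AGO1, AGO2, drosha and pasha, which encode the Dicer enzymes, the other Dicer-2 partner, the Argonautes and the nuclear processor of microRNA precursors, 2 of 7 were in the table and 0 of 7 had an adjusted p under 0.05. With 4.65% of all genes tested called, a count of 0 in so short a list does not set these genes apart. Dcr-2 had a log2 fold change of 0.10 with an interval from -0.01 to 0.21 in the authors' deposited table (adjusted p 0.423). AGO2 stood at -0.13 with an interval from -0.27 to 0.01 in the authors' deposited table (adjusted p 0.423). In linear terms the authors' deposited table puts Dcr-2 at 107% of its control level, with an interval of 99.2% to 116%. Dcr-1, r2d2, AGO1, drosha and pasha are missing from the table.

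The rest of the machinery was read from 8 lists of small RNA genes, 96 genes without loqs and Hen1. Of these, 3 were called higher and 6 lower, which is 9.38% of the annotated list genes. The share called was 3.15% of annotated protein-coding genes and 4.65% of all genes tested. With Bonferroni adjustment the count of 9 fell to 4, while the count over all genes of the table fell from 501 to 170. In all, 31 list genes were in the table with a median log2 fold change of -0.15, against -0.10 over all its genes. The piRNA list held 7 of the 9 calls, among 32 genes, while the other 64 genes had 2 calls (3.12%), a share close to the 3.15% of annotated protein-coding genes.

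Both calls outside the piRNA list were lower. By the authors' deposited table, DCP1, an activator of mRNA decapping that acts downstream of microRNA silencing, fell by 0.33 (log2, adjusted p 0.0042). Tailor, a uridylyltransferase that adds tails to microRNA precursors, fell by 0.19 in the authors' deposited table (adjusted p 0.024). Both log2 fold changes were smaller than that of loqs.

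The shorter lists had few calls or none, as lists of their length would at the 4.65% called among all genes tested, so these counts do not set them apart. Without loqs, 0 of 9 genes in the list made for microRNA biogenesis were called. Of that list, the authors' deposited table holds Karybeta3 and Cbp20, with log2 fold changes of -0.10 and -0.19. Without loqs and Hen1, 0 of 9 genes of the small interfering RNA list were called. trsn, a subunit of the C3PO nuclease that helps to activate the Argonaute-2 complex, is at 0.16 (log2, adjusted p 0.340) in the authors' deposited table. Argonaute loading had 0 of 7 chaperone genes called and 4 in the table, each with a negative sign. The authors' deposited table gives the log2 fold changes of Hsc70-4, Hsp83, Droj2 and Fkbp59 as -0.16, -0.22, -0.15 and -0.09, with adjusted p of 0.062 for Hsc70-4 and 0.088 for Droj2.

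Among 20 silencing effectors DCP1 was the only call. gw, the partner of Argonaute-1 in silencing, had a log2 fold change of -0.12 (adjusted p 0.419), and Edc3 and Patr-1, which also act in decapping, had 0.15 and 0.13, in the authors' deposited table. Proteins that bind double-stranded RNA had 0 of 12 other genes called, and in the authors' deposited table Zn72D had a log2 fold change of -0.12. Of the other 10 RNA methyltransferase genes, 0 were called. Fib, the methyltransferase that modifies ribosomal RNA, had a log2 fold change of -0.21 (adjusted p 0.104), and Mettl3 (listed as Ime4), of the N6-methyladenosine writer, had 0.24 (adjusted p 0.125), in the authors' deposited table.

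**Figure D4:**
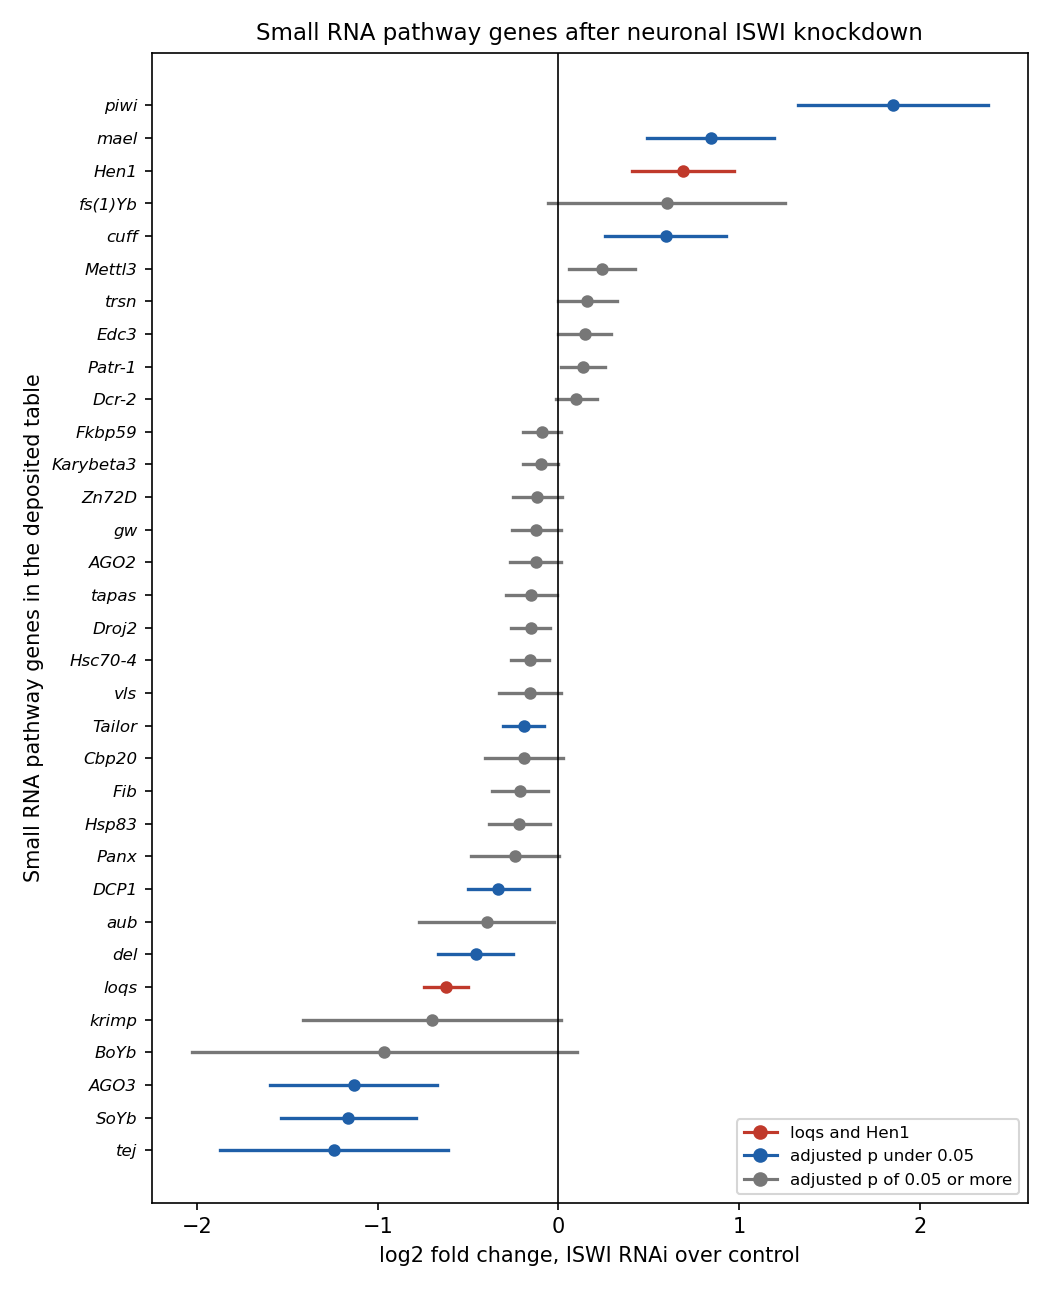
log2 fold change of ISWI RNAi over control with the 95% interval implied by the authors' p for the 33 list genes in the authors' deposited table, loqs and Hen1 included (red), other calls at an adjusted p under 0.05 in blue and the rest in grey. loqs is at -0.62, Dcr-2 at 0.10 and AGO2 at -0.13, and Hen1, at 0.69, lies between mael (0.84) and fs(1)Yb (0.60, not called).

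Hen1 also serves the piRNA pathway, which silences transposons mainly in the gonads. In the piRNA list without Hen1, piwi, mael and cuff rose by 1.85, 0.84 and 0.59 and tej, SoYb, AGO3 and del fell by 1.24, 1.16, 1.13 and 0.46 on the log2 scale of the authors' deposited table, so Hen1 had called companions in both directions. Mean normalised counts of these 7 genes ran from 15.5 per kb for tej to 134 per kb for del, and 6 of them lay below the 127 per kb of Hen1. Also in the piRNA list and not called, aub, tapas and krimp had log2 fold changes of -0.40, -0.15 and -0.70 (adjusted p 0.288, 0.307 and 0.352, the authors' deposited table). fs(1)Yb, of the same list and not called either, had a positive log2 fold change of 0.60 (adjusted p 0.407, the authors' deposited table). Of 10 germ line and gonad markers, 0 were called (4.65% of all genes tested), and the 4 in the authors' deposited table (bgcn, otu, zfh1 and nos) had log2 fold changes between 0.19 and 1.85. The largest, those of nos (1.85) and otu (1.58), were at mean normalised counts of only 4.28 and 6.41. bgcn (0.67) had a mean normalised count of 53.4. The smallest change, that of zfh1 (0.19), was at a much higher count of 1898. Of 10 hemocyte markers, 2 were called higher, against 2.06% of all genes tested, and the authors' deposited table holds 7, with log2 fold changes between 0.96 and 1.54. The part of other tissues in the change of Hen1 was not tested. Of 10 nervous system markers, 0 were called and 2 were in the table, so the labelled tissue could not be checked further from genes listed for their differences.

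Substrates of the Dicer-2 branch were looked at through the hairpin RNA genes, long self-complementary transcripts that Dicer-2 cuts into endogenous small interfering RNAs. Of 8 annotated genes of this class, 3 were in the table and all 3 had negative fold changes, and 2 were called (25.0% against 4.65% of all genes tested). By the authors' deposited table hpRNA:CR32207 (chromosome 3L, 19477329 to 19478720) was called lower, at 61.1% of control (log2 fold change -0.71, adjusted p 2.7e-06). hpRNA:CR32205 (chromosome 3L, 19420390 to 19424183) was also called lower in the authors' deposited table, at 51.4% of control (log2 fold change -0.96, adjusted p 7.6e-05). hpRNA:CR33940 (chromosome 3L, 19486745 to 19488439) had a log2 fold change of -0.49 (adjusted p 0.209, the authors' deposited table). These genes lie close together on 3L and are not independent cases. Their lower level went the same way as that of loqs and the opposite way to that of Hen1, and a link to either was not tested.

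None of the 262 microRNA genes of the annotation was in the table, by identifier. The primary transcript let-7-C, which carries let-7 and its companions, is listed under its own identifier with a mean normalised count of 7.35, a log2 fold change of 1.27 and an interval from -0.21 to 2.76 in the authors' deposited table (adjusted p 0.451). Mature small RNAs, which the Dicer enzymes assisted by Loquacious produce and which Hen1 modifies, were not analysed here.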

How the data were processed

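RNA sequencing of larval central nervous system compared 4 ISWI RNAi libraries with 3 control libraries. The submitters' processing notes name STAR 2.5.0b, DESeq2 and the genome build BDGP6. Gene counting and its use of strand are not given in the sources used here. The authors deposited 1 row per gene with a signal (the base mean, that is the mean count after size-factor division over all libraries), a log2 fold change, and a p-value with its adjusted p-value, per the file headers. Only genes with p under 0.1 are in the table, and 0 of its columns hold values per library. The adjusted p-values imply 10775 tests. A gene was called at an adjusted p under 0.05. Each standard error and 95% interval was worked out from the deposited fold change and p, read as that of a Wald test. The arithmetic of this reading was checked on simulated data (5 tables) in which each p was that of a Wald test by construction. Whether the deposited p-values are of that kind was not tested. Gene positions came from Ensembl release 115 (BDGP6), which holds 2345 of the 2366 identifiers.

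The genes described and the 8 pathway lists were chosen with earlier results of these data known, and the hairpin RNA, microRNA gene and neighbourhood counts were added after values had been seen. Named genes were loqs, Hen1, Iswi, all called list genes and up to 12 further list genes by smallest p. By the same rule, the genes taken as direct partners, the overlapping or adjacent genes and the 5 called genes nearest in fold change were named too. The other called genes near Hen1, the remaining list genes named and the hairpin RNAs fall outside that rule and were chosen after their values were seen. Alternatives were other thresholds, Bonferroni adjustment, a wider set of tests and a t reference. Python 3.11.15, pandas 2.3.3 and scipy 1.17.1 were used.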

Additional observations from a re-analysis of the deposited data

How the results depend on the processing

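The log2 fold changes of loqs and Hen1 are the authors' and stayed as deposited under each alternative, which changed only the threshold or the adjustment. Both deposited adjusted p-values lay under 0.01, so passing at limits of 0.01 and 0.1 follows from them and is no further check. Both calls held with Bonferroni adjustment over 10775 tests (adjusted p 2.9e-19 for loqs and 0.017 for Hen1) and with Benjamini-Hochberg adjustment over 24275 annotated genes. With a t reference of 5 degrees of freedom in place of the normal one, neither passed: loqs at -0.62 had an adjusted p of 0.150 and Hen1 at 0.69 one of 0.366. Under that reference 5 genes of the table passed in place of 501. The count of 9 other small RNA genes called was 4 with Bonferroni adjustment (2 higher, 2 lower), where 170 genes of the table passed in place of 501. It lay between 7 and 11 with the other limits on adjusted p, mean count or fold change. Counts over all genes at those other limits are not given here. No paired analysis was possible because the deposited table holds no values per library; leaving out replicates, the count test and another normalization were not run for the same reason.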
